A study of Mus musculus with 11 samples.

Results

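The HTT ChIP-seq peak lists whose names carry the prefix JP were compared by genotype. They are 4 of the 7 HTT lists in the series, and were chosen by that prefix alone: Q111/+ replicates 3 and 4 and WT replicates 2 and 3, read on the 19 autosomes only. They form a balanced set of 2 lists per genotype, whereas the other 3 lists (prefix DB) hold 2 Q111/+ lists and 1 WT list. No source used here says what the prefixes stand for.

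Chromatin came from the striatum of male littermates on a B6 background, killed at 122 days (4 months). Q111/+ mice are heterozygous knock-ins that carry 1 expanded CAG allele of Htt beside 1 normal allele, and WT mice carry 2 normal alleles, so the antibody against HTT met normal huntingtin in both genotypes. Chromatin was cut with micrococcal nuclease and then sonicated. The labels do not say which animals the libraries came from, or whether each came from a separate animal, so each p-value speaks only of the spread among these libraries, part or all of which may be technical. A peak list holds no measure by which the labelled tissue could be checked, and the total number of reads, and so the depth, is unknown.

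Huntingtin is a large scaffold protein made in most cells, and expansion of its glutamine tract causes Huntington's disease, in which the projection neurons of the striatum are lost early. It is found in the cytoplasm and in the nucleus. It binds transcriptional regulators such as REST and CBP and is not known to have a DNA-binding domain of its own, so ChIP for huntingtin is taken to read chromatin that it reaches through partners. A peak is a stretch where the authors' peak caller found more fragments than in the local background, here at a p of 0.001. The deposited p-values matched fragment numbers multiplied up by a scale particular to each list. On unscaled fragments, a Poisson p up to 0.001 was reached by 4.47% of peaks in both Q111/+ replicates 3 and 4. In WT replicates 2 and 3 it was reached by 4.29% and 13.3%. Most peaks counted below thus met the stated p only with the scale.

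The comparison of list length asked whether fewer HTT peaks were called in the mutant striatum. Both Q111/+ lists were shorter than both WT lists. On the autosomes Q111/+ replicate 3 held 102503 peaks and Q111/+ replicate 4 held 107430. WT replicate 2 held 241707 and WT replicate 3 held 133901. The genotypes did not overlap, and the Q111/+ pair lay close together while the WT pair lay far apart. The means were 104967 ± 3484 (SD, n = 2) in Q111/+ and 187804 ± 76230 (SD, n = 2) in WT, a log2 difference of -0.78 or 1.71-fold more in WT (exact permutation over 6 assignments, two-sided p = 0.333). With 2 lists against 2, that is the smallest two-sided p that can be reached, so no such comparison here could pass 0.05. Covered length was 24.7 Mb and 24.3 Mb in the Q111/+ lists against 54.8 Mb and 27.8 Mb in the WT lists, a log2 difference of -0.67 (exact permutation p = 0.333). On each of the 19 autosomes both Q111/+ lists held fewer peaks than both WT lists. WT replicate 2 set much of the size of the difference: with WT replicate 3 alone as reference, peak number differed by -0.35 and covered length by -0.18 on the log2 scale.

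The lists did not start at the same strength. The number of fragments at a peak's summit was recovered from the deposited fold and −log10 p, and WT replicate 2 was the only one of the 4 lists with peaks of 3 fragments. It held 47013 of them, 19.5% of its autosomal peaks, all at a −log10 p of 3.00, just past the caller's threshold. The other 3 lists started at 4 fragments. The median local background was 1.65 and 1.58 fragments in the Q111/+ lists and 1.21 and 1.44 in the WT lists, lower in both WT lists (exact permutation p = 0.333). The part of background and threshold in the difference of list length was not tested, but the lists can be read at equal fragment numbers.

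At equal fragment numbers the genotypes came closer and then overlapped. Peaks of at least 5 fragments numbered 82268 and 85264 in the Q111/+ lists against 98032 and 108095 in the WT lists, 1.23-fold more in WT without overlap (exact permutation p = 0.333). Peaks of at least 6 fragments numbered 42056 and 43050 against 36552 and 57803, so that WT replicate 2 had the shortest list and WT replicate 3 the longest (log2 difference -0.11, exact permutation p = 1.0). The same order held at 8 fragments, with 6347 and 6468 peaks against 5228 and 10342. At 10 fragments the WT lists were again both the longer, with 2011 and 3143 peaks against 1846 and 1931, and at 20 they held 437 and 597 against 363 and 428. Few peaks were this strong: those of at least 10 fragments made up 1.80% of either Q111/+ list, 0.832% of WT replicate 2 and 2.35% of WT replicate 3. The median peak rested on 5 fragments in 3 lists and on 4 in WT replicate 2.

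**Figure D1:**
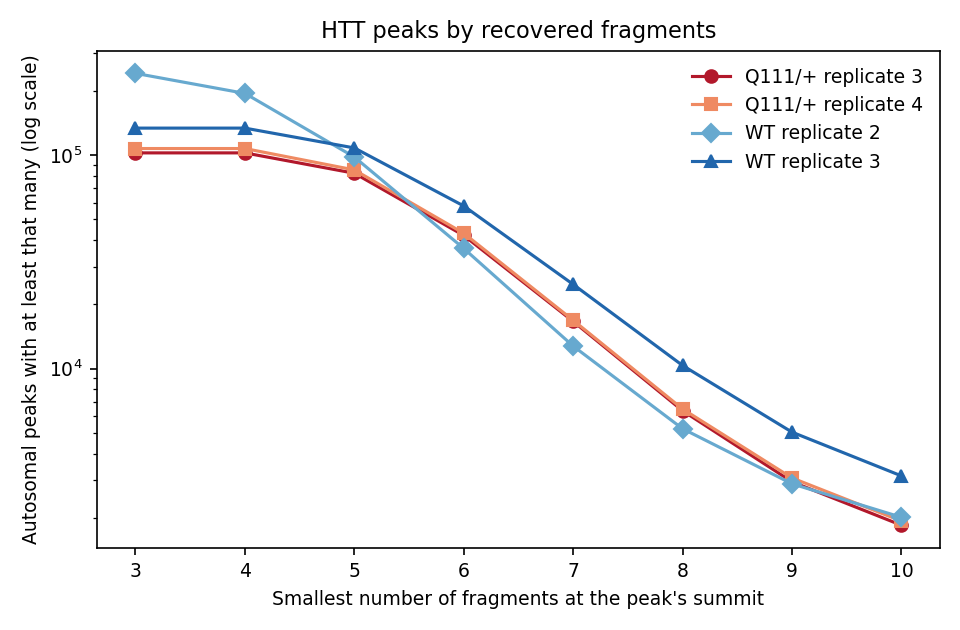
Autosomal peaks (log scale) with at least the number of fragments on the x axis, 1 line per list. WT replicate 2 lies highest at 3 and 4 fragments and lowest at 6 to 9. WT replicate 3 lies highest from 5 fragments on, and the lines of the Q111/+ lists nearly coincide.

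Mean peak width did not separate the genotypes. The mean width was 241 bp and 226 bp in Q111/+ replicates 3 and 4 and 227 bp and 208 bp in WT replicates 2 and 3. Q111/+ replicate 3 was the widest and WT replicate 3 the narrowest, with the other 2 lists within 1 bp of each other. The group means were 234 ± 10.7 bp and 217 ± 13.5 bp (SD, n = 2 each), and the difference of 16.4 bp did not exceed the spread (two-sided exact permutation p = 0.667). The median widths were 207, 193, 193 and 173 bp in the same order.

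The smallest width a list contained did separate the genotypes. It was 155 bp and 145 bp in the Q111/+ lists and 135 bp and 126 bp in the WT lists (exact permutation p = 0.333, the smallest possible). The smallest gap between neighbouring peaks was 1 bp more than this value in all 4 lists, at 156, 146, 136 and 127 bp, so peaks closer together than that were not listed apart. No source used here says what set this value. In the DB lists it was 139 and 137 bp in Q111/+ and 139 bp in WT, with no such separation. Measured above its own list's smallest width, the mean peak extended 86.3 and 81.1 bp in the Q111/+ lists and 91.9 and 81.8 bp in the WT lists. The difference was then -3.14 bp, with the genotypes overlapping and the direction turned (exact permutation p = 0.667). Medians of that excess were 52, 48, 58 and 47 bp.

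The narrowest class of peaks showed the same order. Peaks of up to 150 bp made up 0% of Q111/+ replicate 3, 8.84% of Q111/+ replicate 4, 17.9% of WT replicate 2 and 31.7% of WT replicate 3. Q111/+ replicate 3 could hold none, since its smallest peak was wider than that. At the other end, peaks over 500 and up to 1000 bp made up 2.26%, 1.84%, 2.29% and 1.96% in the same order, and those over 1000 bp 0.242%, 0.235%, 0.259% and 0.382%. The widest single peak measured 38291 bp in both Q111/+ lists and 38299 and 38286 bp in the WT lists.

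Within every list, mean width rose with the number of fragments up to 10. In Q111/+ replicate 3 the mean width rose from 212 bp at 4 fragments to 398 bp at 10, and in Q111/+ replicate 4 from 198 to 384 bp. In WT replicate 2 it rose from 216 to 568 bp and in WT replicate 3 from 175 to 426 bp over the same range. Beyond 10 fragments it did not always rise: in WT replicate 2 it was 507 bp at 11 and 501 bp at 12. At 10 fragments both WT lists thus held wider peaks than both Q111/+ lists, although at 4 fragments they did not. In lists cut to equal length (the 102503 peaks with the highest −log10 p, the length of Q111/+ replicate 3), the mean widths were 241, 227, 251 and 217 bp, a difference between genotypes of 0.312 bp (exact permutation p = 1.0).

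**Figure D2:**
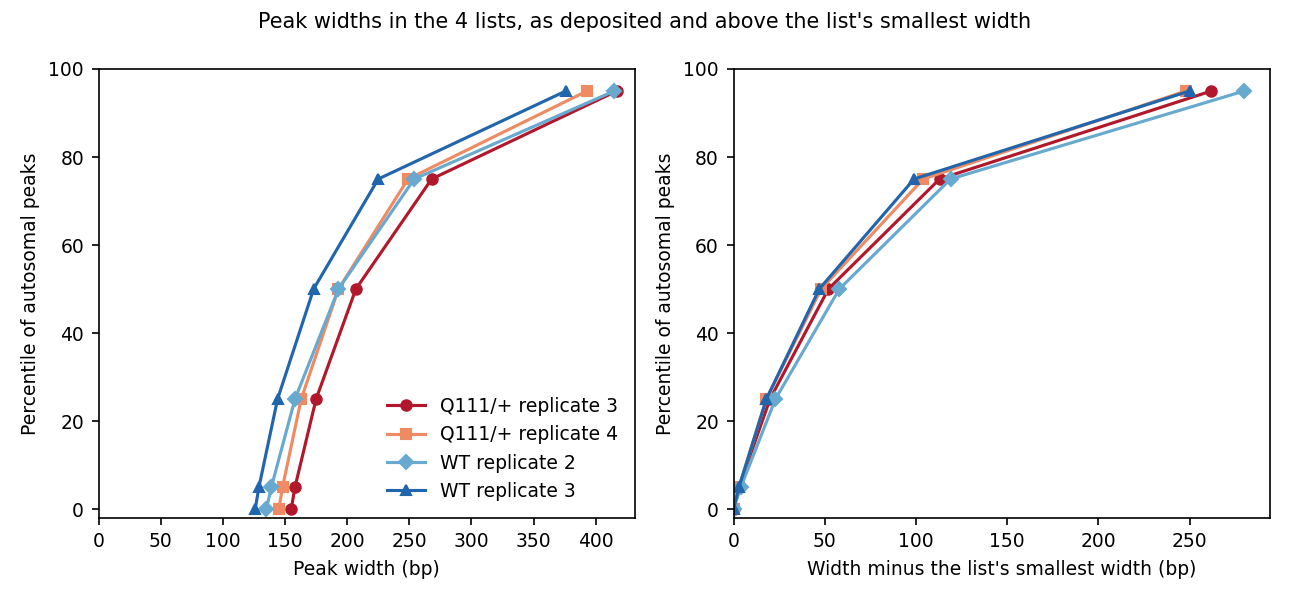
Percentile (y axis) against peak width in bp (left) and against width minus the smallest width of the list (right), from the smallest width to the 95th percentile, 1 line per list. On the left the lists are shifted from 126 bp (WT replicate 3) to 155 bp (Q111/+ replicate 3) at their start; on the right the medians lie between 47 and 58 bp.

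Spacing followed list length. The median gap from the end of a peak to the start of the next was 13346.5 bp and 13810 bp in the Q111/+ lists and 5734 bp and 11038.5 bp in the WT lists, a log2 difference of 0.77 without overlap (exact permutation p = 0.333). In lists of equal length the gaps were 13346.5, 14301.5, 14190 and 14416 bp, and the log2 difference was -0.050 with the genotypes overlapping (exact permutation p = 0.667). Short gaps were somewhat more common in both WT lists than in both Q111/+ lists. Gaps under 1000 bp made up 6.62%, 6.43%, 6.98% and 6.83% of all gaps, and gaps under 500 bp 3.18%, 3.12%, 3.63% and 3.57%. Gaps under 200 bp made up 0.503% and 0.660% in Q111/+ and 0.899% and 1.00% in WT, in the order of the smallest gap each list allowed. The ratio of the median to the mean gap, which falls when peaks bunch together, was 0.572 in Q111/+ replicate 3 and 0.613, 0.609 and 0.618 in the other 3 lists of equal length. Q111/+ replicate 3 also had the longest sparse stretches, with a 99th percentile of gaps of 149181 bp against 130504, 128275 and 125314 bp.

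Equal-length lists spread differently over the chromosomes. Chromosomes 3, 14, 15, 16 and 18 took a larger share of the peaks in both Q111/+ lists than in both WT lists, and chromosomes 4, 5, 7 and 11 a smaller one, while the other 10 overlapped. The largest excess in Q111/+ was on chromosome 3, with 6.88% and 6.61% of peaks in Q111/+ against 6.17% and 5.77% in WT. Chromosomes 14 and 16 followed, higher in Q111/+ by 0.386 and 0.297 percentage points. The largest deficit was on chromosome 11, with 3.58% and 3.92% against 4.07% and 4.60%. Chromosomes 5 and 7 differed by -0.420 and -0.208 percentage points. Each of these 9 differences has an exact permutation p of 0.333, the smallest possible. In the DB lists, cut to at most 102503 peaks, the chromosome 11 shares overlapped, at 5.49% and 5.68% in Q111/+ and 5.64% in WT. Those of chromosome 15 overlapped too. On chromosomes 3, 4, 5, 7, 14, 16 and 18 both DB Q111/+ lists lay on the same side of the DB WT list as in the JP lists, which was not tested.

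At a finer scale, 5 of 2414 windows of 1 Mb (0.207%) differed in peak number between genotypes at an adjusted p under 0.05 (limma with a trended variance on log2(peaks + 0.5), Benjamini-Hochberg adjustment over all windows, adjusted p = 0.0463 for each), and 434 had an unadjusted p under 0.05. A single window was higher in Q111/+, at chr17:55000001-56000000 (mm9), with 74 and 71 peaks against 37 and 38 in WT, a log2 difference of 0.94 (SE 0.219). The other 4 were lower. At chr2:179000001-180000000 the counts were 24 and 17 against 54 and 60, a log2 difference of -1.47 (SE 0.328). At chr7:51000001-52000000 they were 26 and 37 against 77 and 60, and at chr7:35000001-36000000 30 and 27 against 62 and 65, with log2 differences of -1.12 and -1.14. The window at chr17:13000001-14000000 was crowded in all 4 lists, with 107 and 144 peaks against 196 and 209. The calls were lost when any 1 of the 4 lists was left out (0 windows, lowest adjusted p between 0.343 and 0.821), with full lists scaled by their length (0 windows, lowest adjusted p = 0.0842) and with windows of 500 kb (0 windows).

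The 3 DB lists, which had no part in these calls, lay on the same side in all 5 windows. In lists of 87096 peaks the window on chromosome 17 that was higher in Q111/+ held 23 and 29 peaks in the Q111/+ and 17 in the WT DB list. The window on chromosome 2 held 42 and 37 against 83, those on chromosome 7 held 41 and 28 against 60 and 47 and 42 against 63, and the crowded window on chromosome 17 held 126 and 100 against 203. These are values of 1 WT list and were not tested. The other windows with the smallest p-values that were higher in Q111/+ did not all repeat: at chr15:69000001-70000000 (64 and 54 against 25 and 33) and chr9:18000001-19000000 (81 and 64 against 48 and 34) the DB lists lay on the same side, at chr7:76000001-77000000 (75 and 55 against 35 and 34) they overlapped, and at chr15:3000001-4000000 (86 and 76 against 51 and 46) they lay on the other side. The fifth lower window, at chr8:74000001-75000000, held 35 and 38 against 65 and 76 peaks, and its DB lists lay on the same side.

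**Figure D3:**
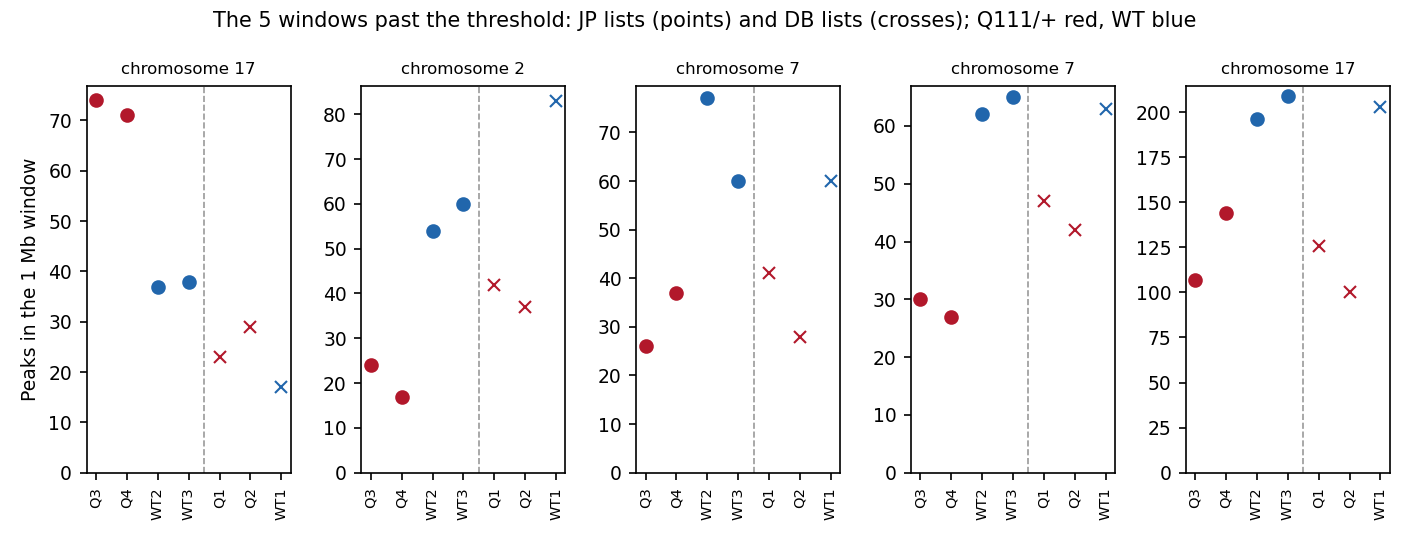
Peaks per 1 Mb window (y axis, from 0) in the 5 windows past the threshold, for the 4 JP lists (points) and the 3 DB lists (crosses), Q111/+ in red and WT in blue. The JP counts come from lists of 102503 peaks and the DB counts from lists of 87096, and WT lies on the same side of Q111/+ in both sets in every window.

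Without a threshold on p, both Q111/+ lists held more peaks than both WT lists in 646 windows (26.8%) and fewer in 570 (23.6%). Of the 646 windows, 63.3% had both Q111/+ DB lists above the WT DB list and 8.98% had both below. Of the 570 windows, 61.2% had both below and 11.6% both above. Over all 2414 windows these shares were 41.3% above and 29.8% below, so the DB lists leaned to the direction seen in the JP lists in both cases. In both sets equal length cut the WT lists more. It kept 42.4% and 76.6% of the JP WT lists, against 100% and 95.4% of the JP Q111/+ lists. Of the DB lists it kept 87096 of 488325 peaks in WT, against 87096 of 109042 and all 87096 in Q111/+. This holds for every DB count in lists of 87096 peaks, and its part was not tested. Neighbouring windows are not independent, and no p is given.

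The lists also lay on a gradient that ran across the genotypes. Over the 2414 windows the numbers of peaks, on the log2 scale, correlated with r = 0.81 between the Q111/+ lists and 0.60 between the WT lists, but also with r = 0.75 between Q111/+ replicate 4 and WT replicate 2, and with r = 0.17 between Q111/+ replicate 3 and WT replicate 3. The first axis of variation between the lists held 76.1% of the variance and placed Q111/+ replicate 3 at 0.69, Q111/+ replicate 4 at 0.14, WT replicate 2 at -0.15 and WT replicate 3 at -0.69. That is the order of the smallest peak width (155, 145, 135 and 126 bp). With 4 lists in this order, genotype and smallest width cannot be told apart along it. The spread of windows was largest in Q111/+ replicate 3 (SD of log2 counts 0.78, against 0.57, 0.52 and 0.50), which had 63 windows with under 10 peaks while the other lists had 5, 1 and 3.

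Regions called in 1 genotype only were then counted. In lists of equal length merging gave 372580 regions. A single list called 345347 of them (92.7%), and all 4 lists called 1954 (0.524%). Both WT lists and neither Q111/+ list called 4764 regions (1.28%), and both Q111/+ lists and neither WT list called 3564 (0.957%), a ratio of 1.34. The 4764 were more than any other pair of lists shared alone (one-sided exact permutation p = 0.167, the smallest possible). The 3564 lay within the range of the pairs of different genotype, which shared 3661 (Q111/+ replicate 4 with WT replicate 2), 3423 (Q111/+ replicate 4 with WT replicate 3), 3290 (Q111/+ replicate 3 with WT replicate 2) and 2890 (Q111/+ replicate 3 with WT replicate 3), and the one-sided exact permutation p was 0.5. On all 19 autosomes the WT regions outnumbered the Q111/+ regions, by 1.02 times on chromosome 14 and up to 1.72 times on chromosome 19.

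**Figure D4:**
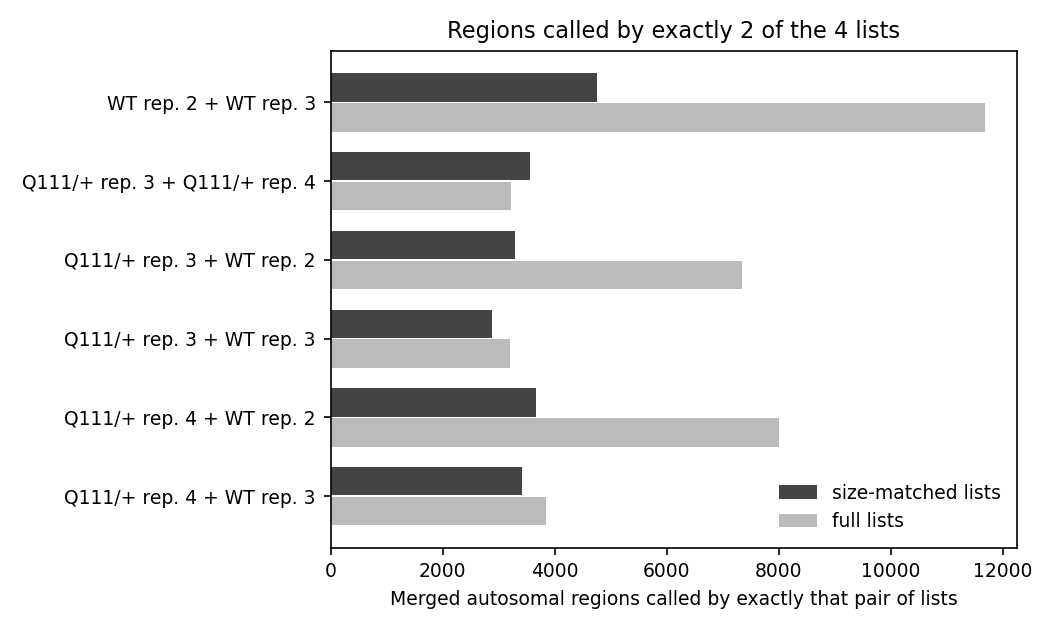
Number of merged autosomal regions called by exactly 2 of the 4 lists (x axis), by pair (y axis), in lists of equal length (dark) and in the full lists (light). The WT pair is highest in both, and the Q111/+ pair lies among the pairs of different genotype.

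The excess of WT regions was larger in proportion once a fragment limit was set, though it did not rise at every step. With at least 5 fragments in each list that called the region, 4446 WT and 2429 Q111/+ regions were left. With at least 6 they were 1457 and 822, with at least 8 they were 299 and 117, and with at least 10 they were 162 and 47. Equal length had kept peaks down to a −log10 p of 3.00 and 3.44 in the Q111/+ lists and 5.95 and 4.03 in the WT lists. The weakest WT peaks were thus cut before any fragment limit, and the step to 5 fragments follows in part from this cut. Its part at higher limits was not tested. Regions of at least 8 fragments made up 6.28% of the WT regions and 3.28% of the Q111/+ regions. Their share was 3.07% among regions called by 1 list of each genotype and 4.14% among those of a single list. In the full lists, without a fragment limit, the WT and Q111/+ counts were 11682 and 3220. There every pair but that of the Q111/+ lists shared more regions than in lists of equal length, and the 3 pairs with WT replicate 2, the longest list, shared the most. Of the 3564 Q111/+ regions, 3127 had no peak in either full WT list. Of the 437 others, 375 had a peak in the full list of WT replicate 2, the longest. The same reading says little of the WT regions, since equal length kept all of Q111/+ replicate 3 and 95.4% of Q111/+ replicate 4.

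The lists of 1 genotype did not overlap more in both genotypes alike. The share of covered bases common to 2 lists of equal length (Jaccard index) was 6.05% for the WT pair and 3.52% for the Q111/+ pair, which was the lowest of all 6 pairs. The 4 pairs of different genotype lay between 3.75% and 4.36%. The same-genotype mean exceeded the mixed mean by 0.754 percentage points (one-sided exact permutation over 3 pairings, p = 0.333, the smallest possible). Without WT replicate 2 or WT replicate 3, so that the Q111/+ pair alone stood for a shared genotype, this difference turned to -0.536 and -0.489 percentage points.

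The strongest peaks repeated most often, and most often between the WT lists. The highest peaks of each list were read against the whole equal-length list (102503 peaks) of another. Of the 1000 highest peaks of WT replicate 2, 79.8% overlapped a peak of WT replicate 3, and 80.7% did in the reverse direction. Between WT and Q111/+ lists these shares ran from 59.2% to 72.2%. Between the Q111/+ lists they were 60.2% and 63.8%, no higher than between genotypes. Of the 10000 highest peaks, 29.4% and 31.2% overlapped a peak of the other list in the WT pair, and 18.0% and 18.9% in the Q111/+ pair. At the full matched length every pair overlapped by 6.53% to 9.24%.

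The regions below were chosen by a ranking rule and stand as examples of the strongest exclusive regions, with positions in mm9. No gene annotation of that build was used here, so no genes are named. The highest ranked WT region lay at chr13:100560883-100561086, with the authors' fold enrichments of 3.77 in WT replicate 2 and 3.80 in WT replicate 3 and −log10 p of 82.7 and 82.2. It had no peak in the full JP Q111/+ lists, but both DB Q111/+ lists called it and the DB WT list did not. The second lay at chr17:71313026-71313166, 141 bp long, with folds of 3.38 and 3.50 and a −log10 p of 60.4 in both lists. It was called in the DB WT list and in neither DB Q111/+ list. The third, at chr5:33080253-33080442, had folds of 4.96 and 6.25 and repeated in the same way. The region at chr2:129773091-129773310 had folds of 6.85 and 5.89 and was called in 1 DB list, of the Q111/+ genotype. The last, at chr5:135833421-135834214, had folds of 6.28 and 6.82 and was called in none of the DB lists. Of these 5 regions, then, 2 kept the direction in the DB lists, 2 went against it and 1 was not called.

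The highest ranked Q111/+ regions had lower −log10 p, from 20.1 to 63.5, where the WT regions had 46.1 to 82.7. At chr5:37052023-37052669 the folds were 2.11 in Q111/+ replicate 3 and 1.80 in Q111/+ replicate 4, at a −log10 p of 63.5 and 34.0. At chr4:96050553-96050837 there were 24 and 20 fragments with folds of 4.16 and 4.03, and both DB Q111/+ lists called it while the DB WT list did not. At chr3:95226176-95226731 there were 15 and 17 fragments, with folds of 4.54 and 4.71. Of the DB lists only that of WT called it, and only in full. At chr18:37546999-37547497 there were 19 and 16 fragments, and at chr6:69307745-69308019 there were 10 and 11. These last regions and the one on chromosome 5 were each called in Q111/+ replicate 2 alone of the DB lists. None of the 5 had a peak in a full JP WT list.

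The 5 highest ranked regions of all 4 lists did not separate the genotypes. Their −log10 p ran from 2032 to 87247, where the highest among the exclusive regions named above was 82.7. What sets these values apart was not tested. At chr2:98506415-98507473 the folds were 7.74 and 6.65 in Q111/+ and 7.67 and 6.23 in WT. At chr9:3000011-3038309, where the widest peak of each list lay, they were 4.31 and 4.00 against 4.50 and 3.62. The 3 others, at chr9:35112825-35113172, chr2:98502404-98503126 and chr2:98503852-98504225, had mean folds of 3.20, 3.31 and 3.77 in Q111/+ and 3.47, 3.04 and 3.77 in WT. In all 5 the genotypes overlapped, with WT replicate 3 lowest. All 3 DB lists called all 5.

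The exclusive regions were then read in the DB lists, which had no part in defining them. With regions from the equal-length lists, WT regions were met more often than Q111/+ regions in each of the 3 DB lists. In the DB WT list (replicate 1) 18.7% of the 4764 WT regions overlapped a peak (95% exact binomial interval 17.6% to 19.8%), against 6.06% of the 3564 Q111/+ regions (5.30% to 6.89%), a difference of 12.6 percentage points. In Q111/+ replicate 1 of the DB lists the shares were 14.1% (13.1% to 15.1%) and 7.46% (6.62% to 8.38%). In Q111/+ replicate 2 they were 9.55% (8.73% to 10.4%) and 7.21% (6.38% to 8.11%). Of the lists read, Q111/+ replicate 2 was shorter (87096 peaks) than the other 2 (102503 each). With regions from the full JP lists, the difference of 12.6 points in WT replicate 1 became 7.49, that of 6.62 in Q111/+ replicate 1 became 2.55, and that of 2.34 in Q111/+ replicate 2 became 0.0334, so that the excess was no longer seen in the last. Regions shared by 1 list of each genotype gave 9.76%, 6.93% and 10.2% in Q111/+ replicate 1, Q111/+ replicate 2 and WT replicate 1, and regions of a single list gave 3.19%, 2.41% and 3.82%. The Q111/+ regions lay below the mixed regions in 2 of the 3 lists and the WT regions above them in all 3. The 2 classes came from equal-length lists with unlike cut-offs, at a lowest −log10 p of 3.00 and 3.44 in Q111/+ and 5.95 and 4.03 in WT. Of the 4764 WT regions 4446 had at least 5 fragments in both lists, against 2429 of the 3564 Q111/+ regions. The part of this in the difference was not tested. Intervals cover counting error only, and regions are not replicates, so no p is given.

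**Figure D5:**
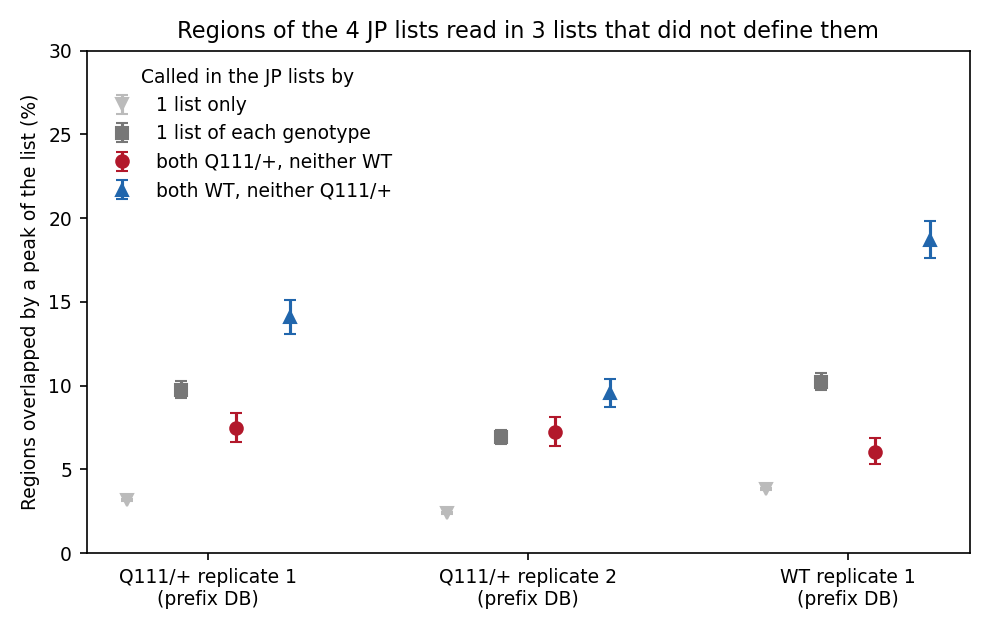
Share of regions (y axis, %) overlapped by a peak of each DB list (x axis), by how the JP lists called the region, with 95% exact binomial intervals. WT regions (triangles) reach 14.1%, 9.55% and 18.7%, and Q111/+ regions (circles) stay between 6.06% and 7.46%.

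Many strong exclusive regions lay close together. Those with at least 8 fragments in both lists were examined by position, a limit set after the data were seen. Of the 299 WT regions, 98 lay in 24 windows of 1 Mb that were dense in regions called by 3 or 4 lists (32.8%), as did 57 of the 117 Q111/+ regions (48.7%). Of regions of any strength, 8.75% of the WT, 11.2% of the Q111/+ and 38.0% of those called in all 4 lists lay there. The largest groups of WT regions were 24 at chr8:19000001-20000000, 16 at chr1:90000001-91000000, and 12 each at chr1:85000001-86000000 and chr4:146000001-147000000. The largest groups of Q111/+ regions were 13 at chr4:145000001-146000000 and 10 in the next window of chromosome 4, and these windows also held 7 and 12 WT regions. Outside the dense windows, 7 WT regions lay within 42.3 kb at chr7:67008157-67050501, 6 within 19.9 kb at chr8:57977703-57997615 and 4 within 13.1 kb at chr5:33067318-33080442, and none of these windows held a Q111/+ region of that strength. Another window outside the dense ones, at chr5:14000001-15000000, held more Q111/+ than WT regions, 4 against 2.

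At these places the Q111/+ lists were not empty. Over the 42.3 kb on chromosome 7 the full lists held 2 and 7 peaks in Q111/+ replicates 3 and 4 and 30 and 21 in WT replicates 2 and 3, and every one of these peaks had at least 8 fragments. The full DB lists held 22 and 10 peaks in Q111/+ and 35 in WT there, out of 109042, 87096 and 488325 autosomal peaks, so the WT list was much the longest. Over the 19.9 kb on chromosome 8 the JP lists held 2 and 1 against 10 and 14 peaks, and the DB lists 8 and 4 against 15. Over the 13.1 kb on chromosome 5 the numbers were closer, at 9 and 8 against 12 and 13. The JP genotypes did not overlap at any of the 3 places, and in the DB lists the WT count was matched by Q111/+ replicate 1 at the third, with 12 peaks each. Exclusive regions there lay among other peaks of at least 8 fragments in all 4 lists. These places were chosen for their WT regions, so the counts in the JP lists are a description.

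Regions called in all 4 lists were compared by the length each list covered in them. The median covered length was 463 and 467 bp in the Q111/+ lists and 588.5 and 539 bp in the WT lists, and the median log2 difference over the 1954 regions was -0.22. Both Q111/+ lists covered less than both WT lists in 656 regions (33.6%) and more in 253 (12.9%). None passed the test across all regions: 0 of 1954 (0%) had an adjusted p under 0.05 in limma, 258 had an unadjusted p under 0.05, and the lowest adjusted p was 0.269. With the width of the highest peak in place of the covered length, 1 region passed, narrower in Q111/+.

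The regions with the smallest p in the narrower direction were between 1943 and 7302 bp long. At chr15:91737111-91740855 the covered length was 1072 and 1054 bp in Q111/+ against 3396 and 3745 bp in WT, and the DB lists covered 1947 and 1598 bp in Q111/+ and 3646 bp in WT. At chr10:27538832-27545508 it was 1389 and 1883 bp against 6399 and 6330 bp, with 2803 and 1818 against 6211 bp in the DB lists. Regions at chr3:6300184-6307485 (3459 and 2866 against 6197 and 6492 bp) and chr12:20232504-20238316 (2813 and 2715 against 4564 and 4646 bp) showed the same in both sets of lists. At chr11:35577363-35579305 it was 178 and 234 against 1319 and 1788 bp, but the DB WT list covered 0 bp there and the DB Q111/+ lists 394 and 1164 bp. In the wider direction the smallest p-values were at chr4:146569723-146571567, with 1497 and 1323 against 450 bp in both WT lists, and at chr4:145706915-145708885, with 1310 and 1209 against 138 and 292 bp. The DB genotypes overlapped at the first (1128 and 424 bp against 646 bp) and were turned at the second, where the lists covered 0 and 163 bp in Q111/+ and 292 bp in WT. The other 3 were at chr16:3326226-3328443 (1478 and 1316 against 535 and 436 bp), chr4:145588338-145589968 (669 and 1631 against 147 and 200 bp) and chr13:12863426-12864370 (419 and 621 against 141 and 182 bp). In the DB lists the genotypes overlapped at the first and second of these, and all 3 lists covered 0 bp at the last. Read over the whole set, 64.8% of the 656 narrower regions were also covered less in both DB Q111/+ lists than in the DB WT list, and 10.5% more. Of the 253 wider regions 26.5% were covered more and 29.6% less, and over all 1954 regions the shares were 16.5% more and 48.9% less.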

How the data were processed

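HTT ChIP-seq peak lists of 7 libraries were deposited, 1 list per library, and 4 input libraries were not analysed here. No source used here says whether peaks were called against input. The submitters' processing notes list mm9, Bowtie2 2.2.5 and MACS2 2.1, without role or order. The authors' fold is the ratio of a peak to the background around it. The deposited significance values are −log10 p-values and −log10 q-values. The authors' score column was not used further. The summit offset is deposited as other position data. The members and lists were chosen with earlier results of these data known.

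Autosomal peaks of the 4 JP lists were used. Equal-length lists kept the 102503 peaks of highest −log10 p, with ties broken by fold and then at random (seed 11). In WT replicate 2 this limit fell among 71519 tied peaks, of which 9008 were kept. Overlapping peaks (at least 1 bp) were merged into regions. Genotypes were compared by exact permutation over 6 assignments. Windows of 1 Mb with a mean of at least 10 peaks, and covered lengths, were fitted with limma 3.58.1 (R 4.3.3), with p-values adjusted by the Benjamini-Hochberg method. Fragments were recovered as whole multiples of 1 scale per list (4.20 to 5.29), for peaks with a −log10 p up to 60 and up to 60 fragments (a match lay within 0.02). At least 99.98% of peaks matched, against at most 0.425% with a wrong scale. Peaks past the search were counted as passing each fragment limit. Dense windows held at least 20 regions called in 3 or 4 lists. Regions named were the 5 WT, 5 Q111/+ and 5 shared regions whose lowest percentile of −log10 p over the lists calling them was highest. Windows and shared regions named were the 5 of smallest p in each direction, and chromosomes up to 3 per direction by size. The places of grouped strong regions were chosen after their values were seen. Pairs of lists shared 8 to 26 identical intervals, so none was a copy of another. Scripts were tested on simulated data. Genes and sequences at the regions were planned and not run, because the only reference tables used were of another build. Other software was Python 3.11.15, scipy 1.17.1, numpy 2.4.6, matplotlib 3.10.9 and pandas 2.3.3.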

Additional observations from a re-analysis of the deposited data

Results flagged for a closer look

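The median of the authors' fold enrichment differed between genotypes in opposite directions in the JP and DB lists, and this difference between the sets was not tested. In the JP lists it was 2.78 and 2.89 in Q111/+ and 2.99 and 3.12 in WT, a difference of -0.216. In the DB lists it was 3.38 and 3.37 in Q111/+ and 3.19 in WT, a difference of 0.187. The window at chr15:3000001-4000000 held more peaks in both JP Q111/+ lists (86 and 76 against 51 and 46, a log2 difference of 0.73) and fewer in both DB Q111/+ lists (27 and 20 against 31), which was not tested either. With 2 lists per genotype no list could be checked for standing apart from its group.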

How the results depend on the processing

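With 2 lists against 2 no setting could bring an exact p under 0.05, so the settings were compared by direction and size. Mean log2 peak number and covered length were lower in Q111/+ under all settings run. With limits of 6 to 9 fragments the genotypes overlapped in peak number. Log2 differences in peak number ran from -0.087 (at least 7 fragments) to -1.54 (peaks whose fragments, unscaled, have a Poisson p up to 0.001). Few peaks passed that unscaled limit: 4583 (4.47%) and 4798 (4.47%) in Q111/+ replicates 3 and 4. In WT replicates 2 and 3 they numbered 10370 (4.29%) and 17811 (13.3%). The fragment limits, that p, a second seed and the width above the smallest were added after seeing the data. The difference in mean width turned to -4.48 bp with at least 6 fragments and to -3.14 bp above each list's smallest width, and that in median gap to -0.050 in lists of equal length. WT and Q111/+ regions numbered 2003 and 1284 with 50000 peaks per list, 702 and 242 with 10000, 1901 and 970 with at least 6 fragments, and 1002 and 131 by the unscaled p. In full lists WT regions numbered 11682. The WT count was the highest of all pairs in each of these. Leaving out each list gave 6073 to 90840 WT and 4228 to 94560 Q111/+ regions, where the high values are regions of a lone list, and a Jaccard difference from -0.536 to 2.30 percentage points. Windows called numbered 0 with full lists, with 500 kb windows and without each list in turn (lowest 0, highest 0), the lone list being assumed to vary like the others, and 5 with no minimum or a pseudocount of 2. By the highest peak's width 1 shared region was called. With regions from the full lists, WT regions exceeded Q111/+ regions in the DB lists by 2.55 points in Q111/+ replicate 1, by 0.0334 in Q111/+ replicate 2 and by 7.49 in WT replicate 1. With regions from equal-length lists, the difference in WT replicate 1 read in full was 22.0 points. Except where the construction shows it, the cause was not tested. No paired analysis by the labels was possible because their replicate numbers (3 and 4 in Q111/+, 2 and 3 in WT) share only number 3. The list names carry numbers 1 and 2 in both genotypes, which no label says to be pairs. A replicate block on these, added after seeing the data, left 1 residual degree of freedom and called 308 windows (64 higher and 244 lower in Q111/+) and 0 shared regions. Same-numbered lists deviated together over windows (r = 0.46) and not over shared regions (r = -0.0044), and 2 pairs cannot show whether the numbers pair the lists.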
